A study of Homo sapiens with 6 samples.

Results

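The 31 genes of acetylcholine synthesis, transport, breakdown and reception were looked up in 4 lists of binding sites from chromatin immunoprecipitation followed by sequencing (ChIP-seq), a method in which an antibody pulls down the DNA that a protein is cross-linked to. The genes were named by their role, not by any measured value, and a binding site (peak) was counted for a gene if it touched the gene body in the GENCODE annotation of hg38 or lay within 50 kb of it. All 31 genes were found in the annotation. Of the 22546 peaks on chromosomes 1 to 22, X and Y, 28 met this rule, and 9 of these were inside a gene body. The cells were SH-SY5Y, a human neuroblastoma line, stably expressing heterologous 82-kDa ChAT in every group and differentiated with retinoic acid for 3 days. They received vehicle (Ham's F-12 medium) or 100 nM Aβ1–42 oligomers for 4 h, and chromatin was precipitated with an in-house antibody to the C-terminus of ChAT, a part that shorter forms of the enzyme also carry, or with an antibody to SATB1. There were 3 plates of cells for each treatment and 1 library for each protein and treatment, so no value has a replicate error and no p-value was computed between treatments. The study asked how Aβ1–42 changes where 82-kDa ChAT and SATB1 sit on chromatin. Both proteins were set against the same input sample within a treatment.

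Acetylcholine is made from choline and acetyl coenzyme A by choline acetyltransferase (CHAT), loaded into synaptic vesicles, released, and split in the synapse by acetylcholinesterase, after which choline is taken up again. It acts on nicotinic receptors, which are ion channels of subunits, and on muscarinic receptors, which signal through G proteins. 82-kDa ChAT is a form of the enzyme that concentrates in the nucleus, and SATB1 is a chromatin-organizing protein that binds AT-rich DNA where chromatin is anchored to the nuclear matrix. The question here was whether a nuclear form of the enzyme lay at the genes of its own transmitter system.

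The DNA under the peaks shows what the lists hold at these genes. Sequences are given on the plus strand of hg38 for 8 peaks inside a gene body or beside CHAT and ACHE without a match in the Alu search. None of these touched an exon. Capitals mark matches on either strand to TCCAT or TCCCAT and to a run of 3 to 6 A or T, then C, then 3 or more A or T. The first is the TC-rich motif, and the second the SATB1 motif, that the study examined.
82-kDa ChAT after vehicle, CHRNB2 intron 1, chr1:154569139-154569209: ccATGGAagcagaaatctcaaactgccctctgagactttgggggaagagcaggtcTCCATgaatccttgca
82-kDa ChAT after vehicle, downstream of CHAT, chr10:49678402-49678539: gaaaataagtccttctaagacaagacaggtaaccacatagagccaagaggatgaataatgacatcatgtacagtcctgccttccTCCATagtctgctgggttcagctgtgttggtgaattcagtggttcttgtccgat
82-kDa ChAT after vehicle, upstream of ACHE, chr7:100928212-100928361: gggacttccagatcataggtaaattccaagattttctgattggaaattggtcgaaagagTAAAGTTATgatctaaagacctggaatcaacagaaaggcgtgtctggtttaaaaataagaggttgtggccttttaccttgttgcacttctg
82-kDa ChAT after Aβ1–42, CHRM3 intron 3, chr1:239561061-239561196: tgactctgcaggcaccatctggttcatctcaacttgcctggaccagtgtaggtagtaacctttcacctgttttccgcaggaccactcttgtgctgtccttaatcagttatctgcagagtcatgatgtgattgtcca
82-kDa ChAT after Aβ1–42, CHRM3 intron 5, chr1:239739152-239739293: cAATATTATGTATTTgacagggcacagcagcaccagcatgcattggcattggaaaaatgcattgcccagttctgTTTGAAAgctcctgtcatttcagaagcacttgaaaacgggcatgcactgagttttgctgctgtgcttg
SATB1 after vehicle, CHRM3 intron 2, chr1:239530827-239530931: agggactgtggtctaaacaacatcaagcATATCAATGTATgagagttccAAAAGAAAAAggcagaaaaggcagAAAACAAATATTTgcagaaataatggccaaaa
SATB1 after vehicle, CHAT intron 4, chr10:49621956-49622066: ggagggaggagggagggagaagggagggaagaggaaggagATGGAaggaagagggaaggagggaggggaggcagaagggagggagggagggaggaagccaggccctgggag
SATB1 after vehicle, RIC3 intron 5, chr11:8114981-8115146: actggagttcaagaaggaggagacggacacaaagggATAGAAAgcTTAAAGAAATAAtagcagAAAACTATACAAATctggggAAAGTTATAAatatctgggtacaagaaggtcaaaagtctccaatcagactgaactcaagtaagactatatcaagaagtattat
The SATB1 sequences after vehicle in CHRM3 and RIC3 held 8 and 13 matches to the A/T pattern, counting overlapping matches on both strands, while the one in CHAT held none and was mostly purines.

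With 50 kb windows, in no list did the number of peaks at the cholinergic genes differ from the length-expected number by more than its counting interval. The merged windows held 4503195 determined nt, 0.153% of the 2937.64 Mb of the genome, and the expected number is that share of each list. For 82-kDa ChAT, 8 of the 7460 peaks after vehicle lay in the windows against 11.4 expected, a ratio of 0.700 (95% interval 0.302 to 1.38). After Aβ1–42, 7 of the 6345 did against 9.73 expected, a ratio of 0.720 (0.289 to 1.48). For SATB1, 4 of the 2884 peaks after vehicle did against 4.42 expected, a ratio of 0.905 (0.247 to 2.32). After Aβ1–42 there were 9 of 5857 against 8.98 expected, a ratio of 1.002 (0.458 to 1.90). Windows of 100 kb on each side gave 24 SATB1 peaks after Aβ1–42 against 14.2 expected, a ratio of 1.69 (1.09 to 2.52). Windows of 10 kb gave 1 peak for 82-kDa ChAT after vehicle against 6.15, a ratio of 0.163 (0.00411 to 0.905). No other of the 36 alternatives gave an interval that leaves out 1, and no correction was made for their number. These expected numbers take an even density over the genome. With the density around all protein-coding genes, the 50 kb ratios were 0.811 and 0.730 for 82-kDa ChAT (vehicle, Aβ1–42). For SATB1 they were 1.08 and 0.878. That density was not applied to the 100 kb windows. With 50 kb windows all 4 intervals, exact Poisson intervals of the peak number that cover counting error only, include 1. They treat peaks as separate events. The 8 for 82-kDa ChAT after vehicle include a neighbouring pair at CHRNA10 and another past the end of CHRM5, so that interval can be too narrow. In gene bodies alone the SATB1 ratio after vehicle was 1.62 (3 peaks against 1.85, interval 0.335 to 4.74), on the other side of 1 from the 0.905 of the windows, and the 82-kDa ChAT ratio after vehicle was 0.209 (0.00530 to 1.17). Between them the lists held 28 peaks against 34.6 expected, a ratio of 0.810 (0.538 to 1.17).

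**Figure D1:**
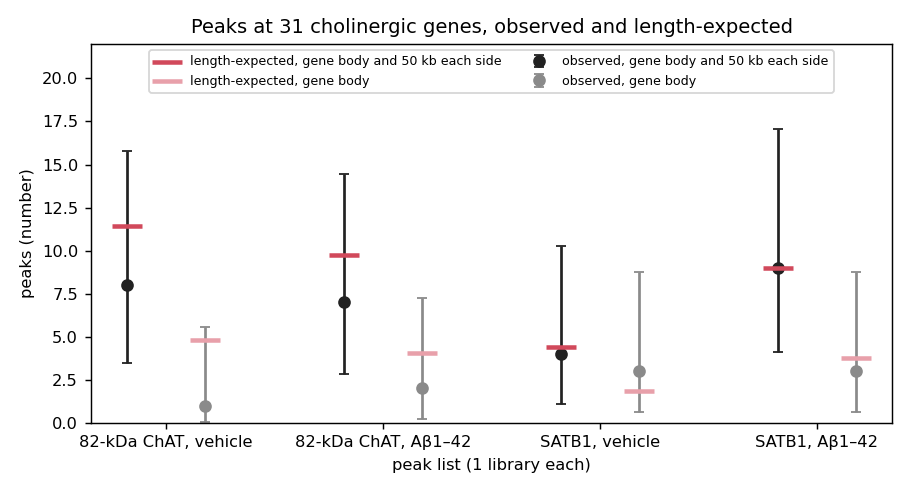
Number of peaks (y axis) in each of the 4 lists (x axis), for the windows of 50 kb around the genes (dark points) and for the gene bodies alone (grey points), with exact 95% Poisson intervals as bars and length-expected numbers as red dashes. Every dash lies within the bar of its point, and for 82-kDa ChAT after vehicle the gene bodies held 1 peak against 4.78 expected.

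Counted by gene, 6 of the 31 had a peak for 82-kDa ChAT after vehicle, where 27.7% of all 20033 protein-coding genes had one in the same kind of window. That is 19.4% of the 31 (exact 95% interval 7.45 to 37.5), and 9.89 genes are expected from their lengths. After Aβ1–42, 6 genes again had one, against 29.1% of protein-coding genes. For SATB1 the numbers were 5 genes after vehicle (16.1%, interval 5.45 to 33.7), against 12.1% of protein-coding genes, and 8 genes after Aβ1–42 (25.8%, interval 11.9 to 44.6), against 35.1%. In any list, 19 of the 31 genes had a peak (61.3%) and 12 had none, against 66.2% of protein-coding genes. The members are of usual size, with a median gene length of 29750 nt against 27471 nt for all protein-coding genes. Inside gene bodies, 1, 1, 3 and 3 genes had a peak for 82-kDa ChAT after vehicle and after Aβ1–42 and for SATB1 after vehicle and after Aβ1–42, where the shares of protein-coding genes were 10.5%, 11.1%, 4.83% and 12%. In any list, the bodies of 7 of the 31 genes held a peak (22.6%), against 26.9%. In every list, for windows and for bodies, the share of all protein-coding genes lay within the counting interval of the share of the 31.

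**Figure D2:**
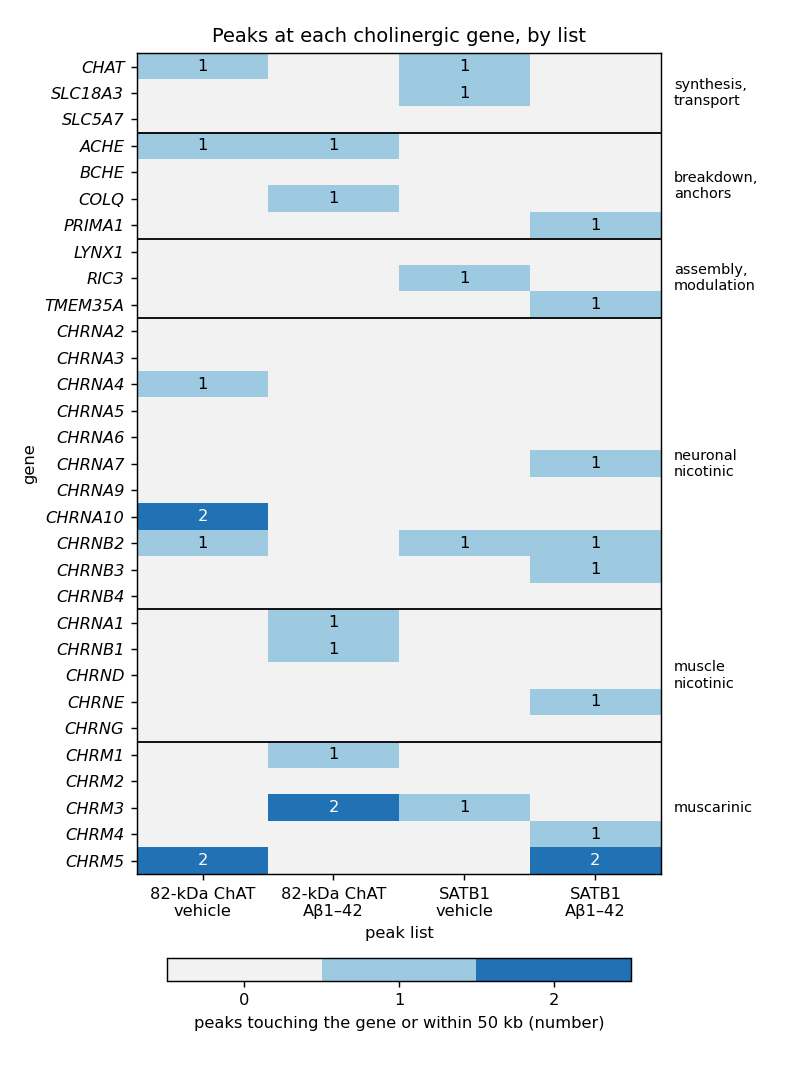
Number of peaks touching each gene or within 50 kb of it (cell colour and digit, empty cells 0), for 31 genes (y axis, grouped by role with black lines) and 4 lists (x axis). 19 genes have a peak in some list and CHRNB2 in 3 lists. No neuronal nicotinic subunit has one for 82-kDa ChAT after Aβ1–42, where 3.03 peaks were expected.

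The lists rarely met at the same gene. ACHE was the only gene with an 82-kDa ChAT peak after both treatments, 1 of the 6 genes of either list (16.7%), where 36.5% of the protein-coding genes of the vehicle list and 34.8% of those of the Aβ1–42 list were in both. For SATB1 the only gene in both treatments was CHRNB2, 20% of the 5 genes after vehicle and 12.5% of the 8 genes after Aβ1–42, against 41.2% and 14.1% of protein-coding genes. After vehicle, CHAT and CHRNB2 had a peak for both proteins, 33.3% of the 82-kDa ChAT genes and 40% of the SATB1 genes, against 21.9% and 50.1%. After Aβ1–42, 0 of the 6 genes with an 82-kDa ChAT peak and 0 of the 8 genes with a SATB1 peak were shared, whereas 40.9% and 33.9% of the protein-coding genes of those lists were. With 6 and 8 genes these shares were not tested. In all, 5 genes had a peak in 2 or more lists (16.1%, against 28.2% of protein-coding genes) and 1, CHRNB2, in 3 (3.23%, against 8.33%).

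No position was shared. None of the 28 peaks overlapped a peak of another list by 1 nt or more, and the nearest peak of another list was between 12653 and 949667 nt away, with a median of 66539.5 nt. Over whole lists, the share that overlapped a peak of another list was 14.1% and 8.79% for 82-kDa ChAT (vehicle, Aβ1–42) and 24.5% and 5.11% for SATB1. The nearest pair at a cholinergic gene was that of the 82-kDa ChAT peaks of the 2 treatments upstream of ACHE, 12653 nt apart.

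**Figure D3:**
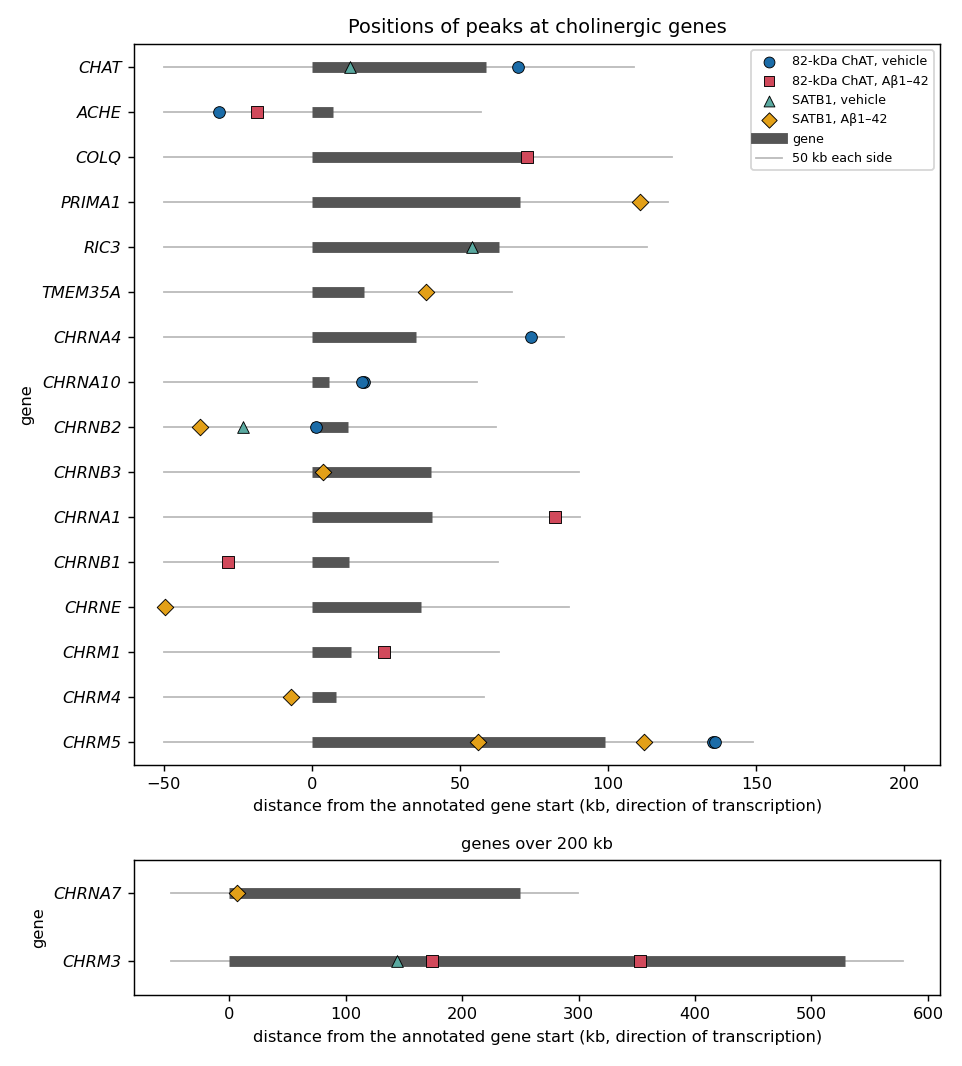
Positions of all 28 peaks along the 18 genes drawn, as the distance in kb from the annotated gene start in the direction of transcription (x axis), with the gene as a thick bar, 50 kb on each side as a thin line, and marker shape and colour for the list; CHRNA7 and CHRM3 have a scale of their own in the lower panel. 9 peaks lie on a bar and 19 on a thin line, and no markers of different lists coincide; SLC18A3, which shares its SATB1 peak with CHAT, is not drawn.

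Synthesis and transport held 2 peaks against 2.20 expected over all lists, both at CHAT. The first was for SATB1 after vehicle, in CHAT intron 4 of the MANE Select transcript, 7919 nt after its start, at a score of 63.58. The score comes from the p-value of the peak caller MACS, on a scale of 10 times its negative log10, so it is at least 50, and it ranks peaks within a list only. This peak had 42.7% of its list at or below it. It also lay 9236 nt from SLC18A3, the vesicular acetylcholine transporter, whose gene lies inside the annotated CHAT gene and ahead of the MANE Select start, so the 2 genes share it. The second, for 82-kDa ChAT after vehicle, lay 10460 nt past the end of CHAT and 1112 nt from the start of C10orf53, at a score of 71.15 (59.2% of its list at or below). The gene of the enzyme thus had a peak of each protein after vehicle, 56336 nt apart, and none of either protein after Aβ1–42. After Aβ1–42, 0.343 peaks of 82-kDa ChAT and 0.317 of SATB1 were expected for CHAT, and 0.618 and 0.571 for the 3 genes of this role. SLC5A7, the high-affinity choline transporter that takes choline back into the nerve ending, had no peak, and the nearest in any list was 96125 nt away.

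Breakdown and its anchors held 4 peaks against 4.71 expected. ACHE, which encodes acetylcholinesterase, had its 2 peaks for 82-kDa ChAT upstream of the gene, outside any other gene. The one after vehicle was 31238 nt away at a score of 69.37, and its sequence occurs only once in the genome. The one after Aβ1–42, at chr7:100915386-100915559, was 18412 nt away, matched Alu, a short repeat with very many copies, and at 50.44 was among the lowest of its list (2.11% at or below). COLQ, the collagen-like tail that holds acetylcholinesterase at the neuromuscular junction, had an 82-kDa ChAT peak after Aβ1–42 at chr3:15449162-15449285, 848 nt past its end, in EAF1 and its antisense RNA (score 61.27). PRIMA1, the anchor of the enzyme in brain membranes, had a SATB1 peak after Aβ1–42 at chr14:93677688-93677849, 40449 nt past its end, in UNC79. At 91.34 this was the highest-scoring member peak of that list (94.5% of the list at or below). BCHE, the related butyrylcholinesterase, had none within 101143 nt.

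Receptor assembly and modulation held 2 peaks against 2.97 expected, both for SATB1. RIC3, a chaperone of nicotinic receptors, had its peak in intron 5 after vehicle, at a score of 54.77 (17.9% of its list at or below). TMEM35A, also called NACHO and a further chaperone of these receptors, had one after Aβ1–42 at chrX:101117322-101117458, 20955 nt past its end, in CENPI, at a score of 61.24. LYNX1, a membrane-tethered modulator of nicotinic receptors, had none within 158948 nt.

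The 11 neuronal nicotinic subunits held 8 peaks against 10.8 expected (exact interval of the count 3.45 to 15.8). By list they had 4 for 82-kDa ChAT after vehicle against 3.57 expected and 0 after Aβ1–42 against 3.03. For SATB1 they had 1 against 1.38 after vehicle and 3 against 2.80 after Aβ1–42. Differences between treatments were not tested. CHRNB2, the beta subunit of the most common high-affinity nicotinic receptor of brain, was the gene with peaks in the most lists. Its 82-kDa ChAT peak after vehicle was in intron 1, 1361 nt after the start, and was the only one of the 28 within 2000 nt of the start of a cholinergic gene. This 71 nt peak had a score of 84.73 (77.4% of its list at or below) and held 2 copies of TCCAT, 1 on each strand. Its SATB1 peaks lay upstream in TDRD10, at chr1:154544434-154544514 after vehicle (23264 nt away, score 85.97) and at chr1:154530068-154530176 after Aβ1–42 (37602 nt away, score 69.81). The former touched an exon of TDRD10. For 82-kDa ChAT after Aβ1–42 the nearest peak to CHRNB2 was 54265 nt away, just outside the window.

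CHRNA10, which with CHRNA9 forms the receptor of inner-ear hair cells, had 2 peaks for 82-kDa ChAT after vehicle, past its end and inside ART1. They were neighbours, at chr11:3653722-3654049 (score 79.06) and chr11:3654103-3654844 (score 255.95). The second was the longest, at 742 nt, and the highest-scoring of all 28 member peaks, with 98.02% of its list at or below. Of its 51-mers 97.1% occurred more than once in the genome, with up to 15 copies, so a read of that length from it mostly has more than 1 possible place. It held 12 copies of CATTC and the other 4. CHRNA4, the usual partner of CHRNB2, had an 82-kDa ChAT peak after vehicle at chr20:63304147-63304581 in COL20A1, 38642 nt past its end (score 77.02), of which 67.0% of 51-mers were repeated elsewhere.

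CHRNA7, which forms the homomeric alpha7 receptor, had a SATB1 peak after Aβ1–42 at chr15:31929880-31930018, at a score of 66.61. It lay inside the annotated gene but 100497 nt before the start of the MANE Select transcript, so only longer transcripts span it. Among the 430 alternate sequences of the assembly, 1 holds copies of CHRNA7 exons and 1 other holds copies of PRIMA1 exons. No other member had such a copy, and 0 peaks lay within 50 kb of these copies. CHRNB3, a subunit of receptors on dopamine neurons, had a SATB1 peak after Aβ1–42 in intron 1 at chr8:42701047-42701147, 3681 nt after the start (score 74.44), and its neighbour CHRNA6 was 51473 nt from that peak, just outside the window. CHRNA3, CHRNA5 and CHRNB4, which lie side by side on chromosome 15, had no peak in any list, and the nearest was 74962 nt from CHRNB4. CHRNA2 and CHRNA9 had none within 347874 and 214580 nt.

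The 5 muscle nicotinic subunits held 3 peaks against 3.93 expected, all after Aβ1–42. CHRNA1, the subunit that carries the main acetylcholine-binding site at the neuromuscular junction, had an 82-kDa ChAT peak at chr2:174705913-174705975, 41617 nt past its end. It was the shortest of the 28, at 63 nt, and scored 90.85 (88.4% of its list at or below). CHRNB1 had one for 82-kDa ChAT upstream in NLGN2, at chr17:7416769-7416887, 28174 nt away (score 78.10). CHRNE, the adult subunit, had one for SATB1 at chr17:4983976-4984178 in CAMTA2 (score 58.60). It lay 49538 nt upstream of the annotated gene, the member peak nearest to the edge of its window. It was 80878 nt before the start of the MANE Select transcript. CHRNG, the fetal subunit, and CHRND, its neighbour, had none, and the nearest peak was 161571 nt from CHRNG. After vehicle 1.30 and 0.502 peaks were expected for 82-kDa ChAT and SATB1 and 0 were found, and with so few a difference between treatments was not detectable.

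Muscarinic receptors held 9 peaks against 9.98 expected. CHRM3, a receptor coupled to Gq that drives secretion and smooth muscle, is the longest of the 31 genes at 528888 nt, and 4.83 peaks are expected for its window over all lists. It had 3. These were the SATB1 peak in intron 2 after vehicle (score 54.91) and the 82-kDa ChAT peaks in introns 3 and 5 after Aβ1–42 (scores 56.61 and 89.30), the latter also inside the antisense gene CHRM3-AS2. The intron 2 and intron 3 peaks were 30130 nt apart. CHRM3 was the only member with an 82-kDa ChAT peak in its body after Aβ1–42. Its intron 3 peak held no match to either motif and its intron 5 peak 4 to the A/T pattern.

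CHRM5, also coupled to Gq, had the most peaks of any member, 4 against 1.53 expected over all lists. The exact interval of a count of 4 is 1.09 to 10.2, which includes the expected number. Each muscarinic receptor gene but CHRM2 had at least 1 peak, where 66.2% of protein-coding genes had a peak in some list. For SATB1 after Aβ1–42 CHRM5 had a peak in intron 1 at chr15:34024643-34024718, where it also lies in AVEN (score 83.65, 88.7% of its list at or below), and another at chr15:34080533-34080666, 13075 nt past its end (score 67.53). For 82-kDa ChAT after vehicle it had a pair in an exon of PGBD4, a gene derived from a transposon, at chr15:34103829-34103953 and chr15:34104567-34104702, 36371 and 37109 nt past its end (scores 65.08 and 64.91). CHRM1, the main muscarinic receptor of cortex, had an 82-kDa ChAT peak after Aβ1–42 at chr11:62897609-62897725, 10954 nt past its end (score 57.67). CHRM4, coupled to Gi, had a SATB1 peak after Aβ1–42 at chr11:46398798-46398954 in AMBRA1, 7022 nt upstream (score 77.69). CHRM2, the receptor that slows the heart, had none, with the nearest 93245 nt away.

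Of the 9 peaks in gene bodies, 0 touched an exon of the cholinergic gene in any annotated transcript, where 7.85% of all peaks in protein-coding genes touched an exon. Of the 19 outside the gene bodies, 14 were inside some other gene and 5 in no gene, so that 23 of the 28 (82.1%) lay in a gene, against 73.6% of all peaks in the 50 kb windows of protein-coding genes. 3 of the 28 (10.7%) were within 2000 nt of the start of a protein-coding gene, against 3.17% of all peaks in such windows. The starts were those of CHRNB2, C10orf53 and PGBD4, of which only CHRNB2 is a cholinergic gene. All 3 were for 82-kDa ChAT after vehicle, 3 of its 8 member peaks against 2.75% of that list's peaks in such windows. With 3 peaks, 2 of them not at a cholinergic start, these differences were not tested. Lengths ran from 63 to 742 nt. Scores were spread through the lists, with 6 of 8, 3 of 7, 1 of 4 and 7 of 9 member peaks above the median of their own list for 82-kDa ChAT after vehicle and Aβ1–42 and SATB1 after vehicle and Aβ1–42.

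Repeated DNA differed between the lists. Alu was searched for with 1 copy, the one that holds the SATB1 peak after Aβ1–42 in the APP gene. The sequence searched for thus came from the SATB1 list after Aβ1–42 itself, and a match or its lack refers to this copy only. All 9 member peaks for SATB1 after Aβ1–42 matched Alu, as did 75.2% of that whole list, and 8 of the 9 were multi-copy, against 58.8% of the list, meaning that more than 50% of their 51-mers occur more than once in the genome. The multi-copy number was 3 of 8 and 0 of 7 for 82-kDa ChAT (vehicle, Aβ1–42) and 0 of 4 for SATB1 after vehicle, against 20.1%, 12.8% and 31.4% of those lists. In the other lists 1, 1 and 0 member peaks matched Alu for 82-kDa ChAT after vehicle, 82-kDa ChAT after Aβ1–42 and SATB1 after vehicle, against 6.21%, 11.5% and 5.93% of all their peaks. Cut into 33097 pieces of 136 nt, the median length of a member peak, the windows of the cholinergic genes matched Alu in 14.4% of pieces. The 51-mer with the most copies occurred 2172 times for the peak near TMEM35A and 1226 times for the peak in CHRNA7. Only the peak past the end of CHRM5, with 5.95% of its 51-mers repeated, was not multi-copy in that list. Single-copy over their whole length were all 4 SATB1 peaks after vehicle, 6 of 7 and 4 of 8 for 82-kDa ChAT (Aβ1–42, vehicle) and 0 of 9 for SATB1 after Aβ1–42, against 55.8%, 73.6%, 58.1% and 16.2% of the lists. The reads were mapped with repeat-masking, but how it was done is not given in the sources used here, so which repeats could hold peaks, and how far the length-expected numbers count bases that could not, is not known.

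**Figure D4:**
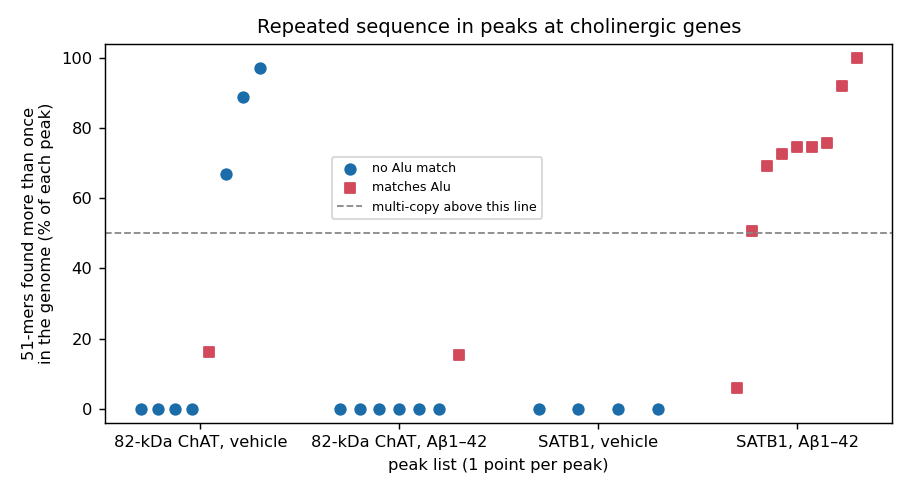
Share of the 51-mers of each member peak that occur more than once in the genome (y axis, percent), by list (x axis), with 1 point for each peak, squares for peaks that match Alu and circles for the rest, and a dashed line at 50%. All 9 points for SATB1 after Aβ1–42 are squares and 8 lie above the line, while the 4 for SATB1 after vehicle are circles at 0.

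The same letter patterns were counted in every list. TCCAT or TCCCAT, searched on both strands, was in 6 of 8 and 3 of 7 member peaks in the 82-kDa ChAT lists (vehicle, Aβ1–42). For SATB1 it was in 2 of 4 and 1 of 9. Of all peaks of those lists 41.2%, 31.1%, 37.4% and 18.2% held one, and of the 136 nt pieces 33.2%. The 6 peaks include both neighbouring CHRNA10 peaks and both PGBD4 peaks, so they are not 6 separate places. These shares were not tested. The A/T pattern around a C was in 3 of 8, 3 of 7, 2 of 4 and 6 of 9, against 67.0%, 64.4%, 71.3% and 70.0% of all peaks and 68.5% of the pieces. The study reported both motifs from motif discovery in these same lists, so their shares in whole lists are no independent support for them. The patterns can overlap, and longer peaks have more room for both. Pieces had 136 nt, while member peaks ran up to 742 nt. A match is a description of the letters and not a measured binding site.

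A further 31 genes around the same system were counted in the same way: choline supply, receptor clustering, LY6 modulators, transcription factors of cholinergic neurons and receptor signalling. For 82-kDa ChAT, 14 of them (45.2%) had a peak after vehicle and 11 (35.5%) after Aβ1–42, against 27.7% and 29.1% of protein-coding genes, with 20 peaks against 18.04 expected and 12 against 15.3. The windows of this set are longer in total than those of the 31 members, for which 11.4 and 9.73 peaks were expected. The shares of genes are not corrected for length, and no length-expected number of genes is given for this set. For SATB1, 6 (19.4%) had one after vehicle and 9 (29.03%) after Aβ1–42, against 12.1% and 35.1%, with 8 peaks against 6.98 and 11 against 14.2. The ratios ran from 0.776 to 1.15, and all 4 intervals include 1. Only for 82-kDa ChAT after vehicle was the share of all protein-coding genes, 27.7%, near the edge of the counting interval of this set (27.3 to 63.97). SLC44A1, a choline transporter of the plasma membrane and mitochondria, had 3 peaks for 82-kDa ChAT after vehicle, 1 after Aβ1–42 and 2 for SATB1 after vehicle, the most of the 31. PLCB1, a phospholipase that Gq-coupled muscarinic receptors activate, was the only one with a peak in all 4 lists. No length-expected number is given for single genes of this set, so the counts at SLC44A1 and PLCB1 are not corrected for gene length.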

How the data were processed

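ChIP-seq of 82-kDa ChAT and SATB1 gave 4 deposited peak lists, 1 per protein and treatment, with a position on hg38 and a score for every peak. Before deposit, the authors mapped reads with BWA and repeat-masking, kept MACS peaks under a p-value of 1e-05 and took out those that the matching input sample also had. The deposited score is the p-value on a scale of 10 times its negative log10. Its lowest value over the lists was checked to be 50.01. The lists do not give the depth of the libraries, and the 2 input samples were not analysed here. The score was used to rank peaks within a list only.

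Genes of GENCODE 44 were intersected with the peaks of chromosomes 1 to 22, X and Y in Python 3.11.15 (pandas 2.3.3, pysam 0.24.0, scipy 1.17.1), with an overlap of at least 1 nt. The length-expected number was the number of peaks in the list times the share of determined bases in the merged windows. Poisson and Clopper-Pearson intervals were exact, at 95%, and cover counting error only. Alu matches came from blastn 2.17.0 at an e-value of 1e-05. Member exons of at least 100 nt were also searched in the alternate sequences, at 98% identity over 90% of the exon. Intron numbers refer to the MANE Select transcript. Every peak of every member is named, and no member was selected by value. Counting was checked on simulated data, and 6 of 6 checks passed. The 31 members, the further 31 genes and the motifs were chosen with earlier results of these data known. Alternatives covered the window, the score threshold, the chance level and repeats, and leaving out CHRM3 was added after seeing the data. The base sequences of the Alu-matching peaks are not reported here.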

Additional observations from a re-analysis of the deposited data

How the results depend on the processing

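The ratio of peaks to the length-expected number stayed within the counting interval of its reported value in 32 of 36 alternatives, and the number of genes with a peak stayed within 1.5 times in 11 of 24. Using the gene body alone gave a ratio of 0.209 for 82-kDa ChAT after vehicle and, above 1, of 1.62 for SATB1 after vehicle, and 1, 1, 3 and 3 genes with a peak for 82-kDa ChAT after vehicle and Aβ1–42 and SATB1 after vehicle and Aβ1–42. Using 10 kb on each side gave a ratio of 0.163 for 82-kDa ChAT after vehicle (interval 0.00411 to 0.905), and 1 and 2 genes for 82-kDa ChAT and 4 for SATB1 after Aβ1–42. Using 100 kb gave 10 genes for 82-kDa ChAT after vehicle and 14 for SATB1 after Aβ1–42. For the latter it gave 24 peaks against 14.2 expected (ratio 1.69, interval 1.09 to 2.52), above 1 where the reported ratio is 1.002. This expected number takes the density of the whole genome, not that around protein-coding genes. Keeping scores at or above the median of the list left 3 genes for 82-kDa ChAT after Aβ1–42 and 1 for SATB1 after vehicle, and gave SATB1 ratios of 0.450 after vehicle and 1.54 after Aβ1–42. For SATB1 after Aβ1–42, leaving out Alu-matching peaks left 0 genes and a ratio of 0, with 2.23 peaks expected, and leaving out multi-copy and pentamer-rich peaks left 1 gene and a ratio of 0.279 (for SATB1 after vehicle, 1.39); by construction these remove most of that list. Leaving out CHRM3, added after seeing the data, gave ratios of 0.813, 0.598, 0.789 and 1.17. No paired analysis was possible because each protein and treatment has 1 library. With 4 to 9 member peaks in a list, differences within the counting intervals were not detectable.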
